A study of Mus musculus with 6 samples.

Results

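Genes of sarcoplasmic reticulum calcium cycling were examined in RNA-seq of ventricular cardiomyocytes (CMs) from CtrlCre and *Cpt1b*-deficient mice. The group was given as 10 genes, matched by symbol: *Atp2a2*, *Pln*, *Sln*, *Ryr2*, *Casq2*, *Casq1*, *Trdn*, *Jph2*, *Hrc* and *Slc8a1*. Of these, 9 were among the 16448 genes of the deposited table and all 9 passed the filter on low values, together with 11364 genes in all. *Sln*, which encodes the pump inhibitor sarcolipin, was not analysed here. The 6 samples came from C57BL/6 mice of 8 to 12 weeks, and both groups carried a Cre recombinase driven by the αMHC (*Myh6*) promoter, which is active in CMs from embryonic stages on. The 3 CtrlCre samples had wild-type *Cpt1b* (αMHC-Cre pos/+;Cpt1b +/+), whereas the 3 Cpt1bcKO samples were homozygous for a *Cpt1b* allele with loxP sites (αMHC-Cre pos/+;Cpt1b fl/fl). CPT1B is the muscle isoform of the enzyme that lets long-chain fatty acids enter mitochondria. The comparison asks how mRNA levels of the calcium cycle differ in CMs that lack it. Atria were removed before the CMs were pelleted by centrifugation. Each group comprised 3 mice, and its 3 samples are taken as 1 mouse each.

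In a CM, each heartbeat depends on calcium leaving and re-entering the sarcoplasmic reticulum, the internal calcium store. Calcium that enters through channels in the surface membrane opens the ryanodine receptor RYR2, calcium from the store then triggers contraction, and the pump SERCA2 returns it to the store while phospholamban holds the pump in check. Calsequestrin buffers calcium inside the store, triadin and junctophilin 2 hold the release site together, and the sodium–calcium exchanger NCX1 carries calcium out of the cell. The amount of pump rises as CMs mature after birth.

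The deposited values are normalized counts, in which the authors scaled the reads per gene to make samples comparable and then rounded them. From the spacing of low values, a single read was estimated to be worth 0.682 to 1.29 normalized counts and the reads counted on genes 14900000 to 24500000 per sample. *Cpt1b* had 1861, 893 and 1443 normalized counts in CtrlCre samples 1, 2 and 3 and 211, 353 and 285 in the Cpt1bcKO samples. All Cpt1bcKO samples were below all CtrlCre samples (log2 fold change −2.27, limma adjusted *P* = 0.00338). The share of the mitochondrial rRNA *mt-Rnr2* was between 61.8% and 72.6% in 5 samples and 80.8% in Cpt1bcKO sample 3. *Xist* was at 957 and 1080 in sample 1 of each group and at 23 to 78 in the others, so that each group held 1 female and 2 male samples. The 6 markers of ventricular CMs summed to 183233 to 256504 normalized counts in CtrlCre and to 148079 to 175341 in Cpt1bcKO samples. None of the 6 had an adjusted *P* value below 0.05. Their log2 fold changes were −0.47 (*Myh6*), −0.46 (*Myl2*), −0.31 (*Actc1*), −0.30 (*Myl3*), −0.22 (*Tnnt2*) and 0.23 (*Irx4*). The lowest unadjusted limma *P* values were 0.0507 (*Myl2*) and 0.0733 (*Myh6*). The calcium cycling members described below had a median log2 fold change of −0.47. The 6 fibroblast markers summed to 468 to 706 and 995 to 1188, and 2 of them (*Col1a1* and *Lum*) passed the test. CtrlCre sample 1, which had the highest ventricular sum, was low in the 6 endothelial markers (1082, against 2064 and 2269 in the other controls and 1971 to 2306 in Cpt1bcKO samples) and in the 5 smooth muscle and pericyte markers (566, against 1519 and 1857 in the other controls and 1023 to 1474 in Cpt1bcKO samples). Atrial markers summed to 218 to 363 and 546 to 779, where *Nppa*, which ventricular CMs can also express, accounts for 384 to 683 in the Cpt1bcKO samples. Without *Nppa*, no atrial marker had an adjusted *P* value below 0.05, and the highest value of the 3 skeletal muscle markers with a row (*Myh1*, *Myh2* and *Myh4*) was 7. In bulk RNA, a smaller share of CMs and less RNA of a gene per CM cannot be told apart, and the part of these differences in the results below was not tested.

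The members lie on different chromosomes, apart from *Pln* and *Trdn*, which are both on the plus strand of chromosome 10 (GRCm38, chr10:53337667-53345987 and chr10:33080554-33476709). *Atp2a2* lies on the minus strand at chr5:122453514-122502225, *Ryr2* on the minus strand at chr13:11553102-12106945, *Casq2* on the plus strand at chr3:102086415-102146514 and *Casq1* on the minus strand at chr1:172209894-172219868. *Jph2* was annotated on the minus strand at chr2:163336242-163397993, *Hrc* on the plus strand at chr7:45335290-45338974 and *Slc8a1* on the minus strand at chr17:81388691-81649607. In GENCODE vM21, 1644 exonic bases of *Pln* are shared with *Gm47644* on the opposite strand (mean of 206.5 normalized counts), and 141 with *Cep85l* (mean 253). Reads on several genes had been left out, and whether the counting used strand is not given in the sources used here. The level of *Pln* is therefore uncertain, and an effect of the overlap on its comparison between groups was not tested. *Atp2a2* shares 83 exonic bases with *Gm43361*, *Casq1* 156 with *Gm17224* and *Slc8a1* 296 with *AC122399.1* and 8 with *Gm11096*, all on the opposite strand.

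Promoter sequences of 7 members could be matched in RefSeq by symbol, as the 250 bases before the start of transcription (GRCm38.p6). Those of *Pln* (chr10:53337436-53337685, plus strand), *Hrc* (chr7:45335019-45335268, plus strand) and *Slc8a1* (chr17:81738388-81738637, minus strand) are shown because the values of these 3 genes did not overlap between the groups. The *Pln* window ends inside the gene as annotated in the deposited table (start at 53337667), so its RefSeq start lies downstream of the annotated one. The *Slc8a1* window precedes a RefSeq start that lies outside the gene as annotated in the deposited table (end at 81649607), so it belongs to a more distant first exon. The sequences are written 5′ to 3′ in gene direction, with matches to 6 motifs in capitals, searched on both strands (CANNTG is its own reverse complement). The motifs were TATAAA (the TATA box), CANNTG (the E-box), AGATAA and TGATAA (both of GATA type), AGGTGT (of T-box type) and TACGTG (a form of the hypoxia response element).
Pln: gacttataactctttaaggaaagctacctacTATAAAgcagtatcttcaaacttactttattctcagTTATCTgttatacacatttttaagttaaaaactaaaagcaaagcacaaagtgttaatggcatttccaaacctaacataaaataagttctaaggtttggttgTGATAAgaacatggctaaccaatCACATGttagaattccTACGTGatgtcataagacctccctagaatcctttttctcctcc
Hrc: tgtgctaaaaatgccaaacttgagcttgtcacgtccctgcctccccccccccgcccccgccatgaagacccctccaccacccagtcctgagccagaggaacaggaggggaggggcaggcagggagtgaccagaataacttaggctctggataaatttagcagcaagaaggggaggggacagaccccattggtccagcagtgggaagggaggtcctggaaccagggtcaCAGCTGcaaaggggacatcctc
Slc8a1: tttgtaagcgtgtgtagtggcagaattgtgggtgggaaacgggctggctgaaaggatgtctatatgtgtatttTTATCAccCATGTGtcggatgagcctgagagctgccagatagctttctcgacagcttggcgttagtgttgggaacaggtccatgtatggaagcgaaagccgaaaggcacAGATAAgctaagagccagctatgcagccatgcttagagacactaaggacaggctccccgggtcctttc
The *Pln* window holds TATAAA at 219, AGATAA at 183, TGATAA at 82, CANNTG at 59 and TACGTG at 43 bases before the start, counted from the first base of each match. *Slc8a1* has TGATAA at 177, CANNTG at 169 and AGATAA at 68 bases, and *Hrc* has CANNTG alone, at 22 bases. Among 32851 promoter windows of this length, CANNTG occurs in 66.2%, TATAAA in 12.4%, AGGTGT in 11.8%, AGATAA in 9.99%, TGATAA in 7.94% and TACGTG in 2.72%. GC content is 32.8% in the *Pln*, 59.6% in the *Hrc* and 50.4% in the *Slc8a1* window. A match describes the sequence and was not tested as a binding site.

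All 9 members had a negative log2 fold change in Cpt1bcKO CMs, as did 50.2% of all genes tested. The 9 values ranged from −1.02 to −0.066 with a median of −0.47, where the median over all genes tested was −0.0013. At an unadjusted limma *P* value below 0.05, 6 members (*Atp2a2*, *Pln*, *Casq1*, *Trdn*, *Hrc* and *Slc8a1*) were lower, as were 7.22% of all genes (13.9% in either direction). After samples were scaled to their totals outside mitochondrial-encoded and rRNA genes, there were 4 such members against 4.44% of all genes lower, of 15.2% in either direction. Groups did not overlap in 5 members (*Atp2a2*, *Pln*, *Trdn*, *Hrc* and *Slc8a1*), all lower, against 9.6% of all genes lower and 9.13% higher. After Benjamini–Hochberg adjustment over the 11364 genes in limma, 0 members remained below 0.05 (0.906% of all genes were lower and past it, 1.57% in either direction). The female sample is sample 1 of each group, so sex cannot be told apart from other traits of these samples. With sex as a covariate, *Atp2a2*, *Pln*, *Hrc* and *Slc8a1* passed the adjusted threshold, where 2.91% of all genes were lower and past it (5.05% in either direction). In that fit the adjusted *P* values were 0.0338, 0.00152, 0.0298 and 0.0416 in this order, and 7 members, now with *Ryr2*, had an unadjusted *P* value below 0.05, all lower, as did 11.3% of all genes.

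**Figure D1:**
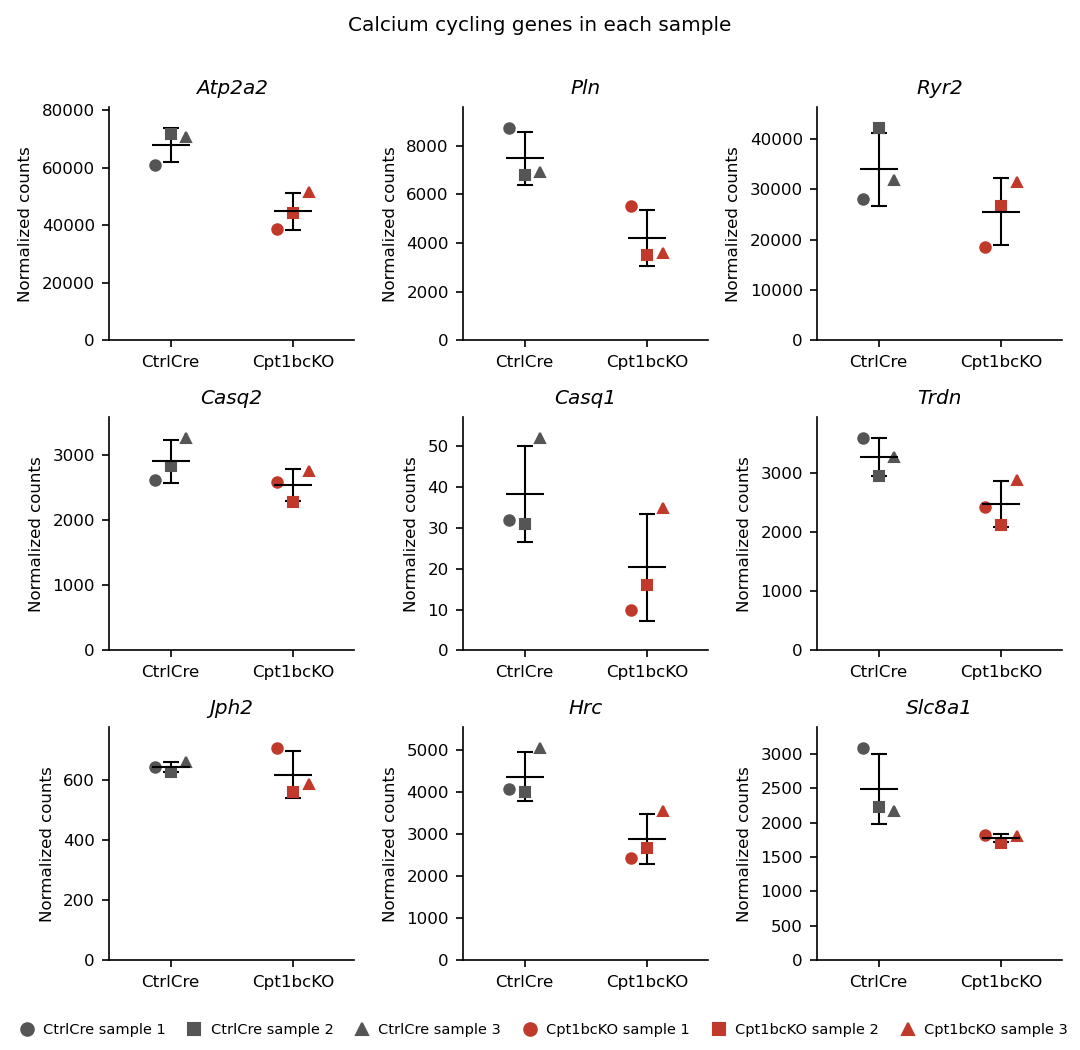
Normalized counts (linear axes from 0) of the 9 genes in each of the 3 CtrlCre (grey) and 3 Cpt1bcKO (red) samples, with the mean and SD (*n* = 3) in black. *Atp2a2*, *Pln*, *Trdn*, *Hrc* and *Slc8a1* separate the groups, whereas *Ryr2*, *Casq2*, *Casq1* and *Jph2* overlap.

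*Atp2a2* encodes SERCA2, the pump that refills the store. It had 60919, 71748 and 70577 normalized counts in CtrlCre samples 1, 2 and 3 and 38677, 44293 and 51436 in the Cpt1bcKO samples. All Cpt1bcKO samples were below all CtrlCre samples, and the mean was 66.1% of the control mean. On the log2 scale the difference was −0.60 (limma, SE 0.204, 95% interval −1.05 to −0.15, unadjusted *P* = 0.0138, adjusted *P* = 0.209). *Atp2a2* was the gene with rank 12 by mean value in CtrlCre CMs. It made up 1.72% to 2.07% of the values outside mitochondrial-encoded and rRNA genes in CtrlCre and 1.23% to 1.55% in Cpt1bcKO samples. Fits without a single sample gave *Atp2a2* values from −0.71 to −0.50, and 4 of the 6 fits gave an unadjusted *P* value below 0.05.

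*Pln* encodes phospholamban, the small membrane protein that inhibits SERCA2 until it is phosphorylated. Its values were 8710, 6793 and 6911 normalized counts in CtrlCre and 5521, 3492 and 3595 in Cpt1bcKO samples. Sample 1, the female one, was the highest of each group, and the groups did not overlap. *Pln* had the lowest *P* value of the members, with a log2 fold change of −0.85 (limma, SE 0.198, 95% interval −1.29 to −0.41, unadjusted *P* = 0.001445, adjusted *P* = 0.0678). The mean in Cpt1bcKO CMs was 56.3% of that in CtrlCre CMs. Within the male samples alone, an analysis chosen after seeing the data, its log2 fold change was −0.95 and the adjusted *P* value 0.00449 in limma, with 1.17% of 10835 genes lower and past the threshold (2.27% in either direction). Without Cpt1bcKO replicate 1, *Pln* was also past the adjusted threshold, with a log2 fold change of −1.07 and an adjusted *P* value of 0.00694 in limma. In that fit, 168 of 11123 genes were lower and past the threshold (305 in either direction). In each of the 6 fits without a single sample, the unadjusted *P* value of *Pln* was at most 0.0109.

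*Hrc* encodes the histidine-rich calcium-binding protein, which lies in the store and binds both SERCA2 and triadin. It had 4057, 3991 and 5033 normalized counts in CtrlCre and 2422, 2665 and 3555 in Cpt1bcKO samples, without overlap. Its log2 fold change was −0.61 (limma, SE 0.175, 95% interval −0.998 to −0.22, unadjusted *P* = 0.00568, adjusted *P* = 0.145). Without a single sample in turn it lay between −0.77 and −0.49, and the unadjusted *P* value was at most 0.0332.

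*Ryr2* encodes the calcium release channel of the store. Its values were 28092, 42113 and 31743 normalized counts in CtrlCre and 18443, 26739 and 31524 in Cpt1bcKO samples. Cpt1bcKO sample 3 was close to CtrlCre sample 3, Cpt1bcKO sample 1 was the lowest of all, and the groups overlapped. For *Ryr2* the log2 fold change was −0.42 (limma, 95% interval −0.96 to 0.11, unadjusted *P* = 0.107, adjusted *P* = 0.466). Without Cpt1bcKO replicate 1 it was −0.21, and without CtrlCre replicate 2 it was −0.26. Without Cpt1bcKO replicate 3 it was −0.59 (limma, unadjusted *P* = 0.0434, adjusted *P* = 0.396), and with sex as a covariate the unadjusted *P* value was 0.0165 and the adjusted one 0.134. The interval spans 0.515 to 1.08 times the level of CtrlCre CMs.

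*Trdn* encodes triadin, which anchors calsequestrin at the release channel. It had 3596, 2961 and 3283 normalized counts in CtrlCre and 2433, 2124 and 2887 in Cpt1bcKO samples, without overlap, although Cpt1bcKO sample 3 and CtrlCre sample 2 were near each other. *Trdn* differed by −0.41 on the log2 scale (limma, 95% interval −0.75 to −0.065, unadjusted *P* = 0.0243, adjusted *P* = 0.268). In 3 of the 6 fits without a single sample the unadjusted *P* value stayed below 0.05.

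*Casq2* encodes cardiac calsequestrin, the main calcium buffer of the store. Its values of 2621, 2829 and 3258 normalized counts in CtrlCre and 2590, 2280 and 2759 in Cpt1bcKO samples overlapped. *Casq2* differed by −0.19 on the log2 scale (limma, 95% interval −0.51 to 0.13, unadjusted *P* = 0.220, adjusted *P* = 0.605). It was −0.10 without CtrlCre replicate 3, −0.11 without Cpt1bcKO replicate 2 and −0.077 with the scaling to totals described above. *Casq1*, the calsequestrin of fast skeletal muscle, was expressed at a low level of 32, 31 and 52 normalized counts in CtrlCre and 10, 16 and 35 in Cpt1bcKO samples. It had the lowest log2 fold change of the members, −1.02, with the widest 95% interval, from −1.99 to −0.048 (limma, unadjusted *P* = 0.0414, adjusted *P* = 0.335). Cpt1bcKO sample 3 lay within the control range, the values rest on few reads, and in 1 of the 6 fits without a single sample the unadjusted *P* value was below 0.05. It was −0.63 without Cpt1bcKO replicate 1, the sample with the lowest value.

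*Jph2* encodes junctophilin 2, which ties the store to the transverse tubules. It had 641, 624 and 658 normalized counts in CtrlCre and 704, 558 and 584 in Cpt1bcKO samples. The control samples were close together (641 ± 17, SD, *n* = 3), and the Cpt1bcKO samples lay on either side of them (615 ± 77.9, SD, *n* = 3). *Jph2* differed by −0.066 on the log2 scale (limma, 95% interval −0.38 to 0.25, unadjusted *P* = 0.654, adjusted *P* = 0.877). This interval is 0.767 to 1.19 times the control level. The value turned to 0.046 after samples were scaled to their totals outside mitochondrial-encoded and rRNA genes, and to 0.00079 without Cpt1bcKO replicate 2.

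*Slc8a1* encodes NCX1, the sodium–calcium exchanger of the surface membrane. Its values were 3078, 2219 and 2173 normalized counts in CtrlCre and 1815, 1705 and 1799 in Cpt1bcKO samples. The Cpt1bcKO samples were all lower and close together (1773 ± 59.4, SD, *n* = 3), whereas CtrlCre sample 1 stood above the other controls (mean 2490 ± 510, SD, *n* = 3). On the log2 scale *Slc8a1* differed by −0.47 (limma, 95% interval −0.83 to −0.12, unadjusted *P* = 0.0140, adjusted *P* = 0.209). It was −0.31 without CtrlCre replicate 1, a value more than 1.5 times smaller, with an unadjusted *P* value of 0.0536.

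The distance of each sample from the CtrlCre mean was compared across the 9 members. On the log2(value + 1) scale, the mean distance was −0.62 in both Cpt1bcKO sample 1 and Cpt1bcKO sample 2 and −0.30 in Cpt1bcKO sample 3, against −0.050 to 0.067 in the CtrlCre samples. Cpt1bcKO sample 2 was below all 3 controls in 9 members, sample 1 in 8 and sample 3 in 6. The share of all genes tested that lay below all 3 controls was 31% in sample 2, 25.4% in sample 1 and 32% in sample 3. Cpt1bcKO sample 3 was the highest of its group in *Atp2a2*, *Ryr2*, *Casq2*, *Casq1*, *Trdn* and *Hrc*, and it is also the sample with 80.8% *mt-Rnr2*; whether these are related was not tested. Without it, 7 members had an unadjusted *P* value below 0.05, all lower, as did 6.56% of all genes, and the median log2 fold change of the members was −0.59. The female pair and the male samples differed from their controls in the same direction in all members except *Jph2*. The difference was larger in the female pair for *Casq1* (−1.58 against −0.74), *Slc8a1* (−0.76 against −0.33), *Ryr2* (−0.61 against −0.33), *Trdn*, *Hrc* and *Atp2a2*. It was smaller for *Pln* (−0.66 against −0.95) and *Casq2* (−0.017 against −0.28). These contrasts rest on 1 female sample per group and were not tested.

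**Figure D2:**
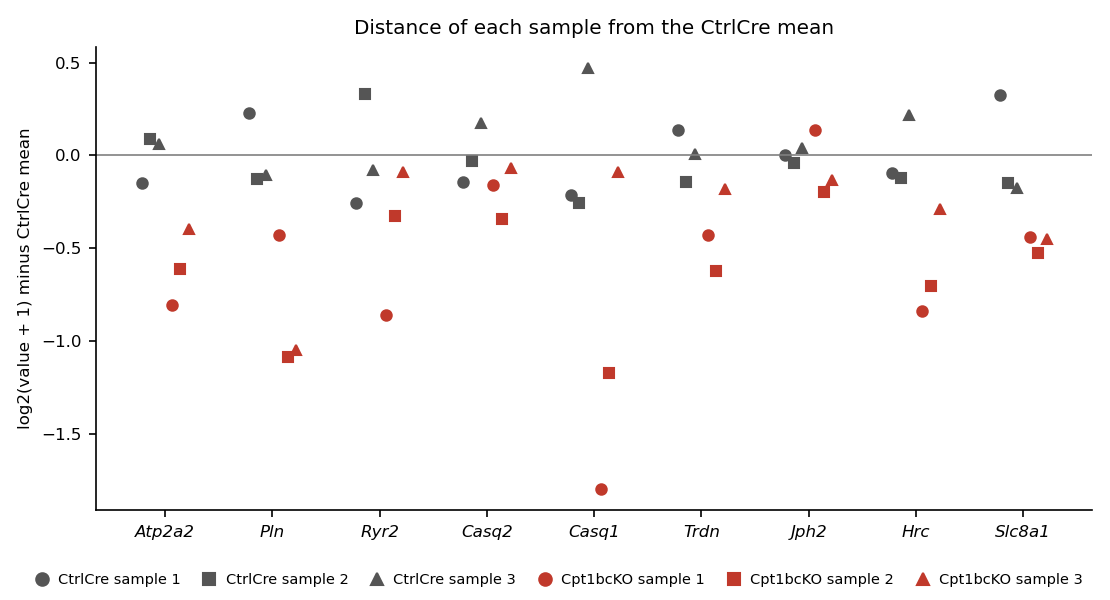
Distance of each sample from the CtrlCre mean on the log2(value + 1) scale for the 9 genes, with CtrlCre samples in grey and Cpt1bcKO samples in red and the symbol marking the sample number. Cpt1bcKO sample 3 (red triangles) is the highest of its group in 6 genes, whereas *Pln* is lower in Cpt1bcKO samples 2 and 3 than in sample 1.

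Levels were compared between genes per kilobase of exons in GENCODE vM21, since longer transcripts gather more reads. In CtrlCre CMs, *Atp2a2* was the highest member with a mean of 11141 normalized counts per kilobase, followed by *Pln* (2708), *Hrc* (1699), *Ryr2* (1180), *Casq2* (1061), *Trdn* (351), *Jph2* (151), *Slc8a1* (132) and *Casq1* (19.6). Sample ranges of neighbours in this order overlapped for *Ryr2* and *Casq2* and for *Jph2* and *Slc8a1*, and were separate for the others. In Cpt1bcKO CMs the means were 7368 for *Atp2a2*, 1523 for *Pln*, 1123 for *Hrc*, 929 for *Casq2* and 888 for *Ryr2* normalized counts per kilobase. There, *Pln* overlapped with *Hrc*, *Hrc* with *Casq2* and *Casq2* with *Ryr2*. The exon length counts all annotated isoforms, and the annotated ends of *Atp2a2* and *Slc8a1* differ between vM21 and the deposited table, so the levels are approximate.

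The ratio of 2 members within a sample does not depend on scaling between samples, and 7 such ratios were compared between the groups with an exact permutation test, which cannot go below *P* = 0.10 with 3 samples against 3. The ratio of *Atp2a2* to *Pln*, of pump to inhibitor mRNA, was 6.99, 10.6 and 10.2 in CtrlCre and 7.01, 12.7 and 14.3 in Cpt1bcKO samples. Sample 1 had the lowest ratio of each group, and the groups overlapped (log2 difference 0.25, exact *P* = 0.50, adjusted over the 7 ratios *P* = 0.70). This difference was 0.57 without Cpt1bcKO replicate 1, 0.061 without CtrlCre replicate 1, 0.050 without Cpt1bcKO replicate 3 and 0.14 without Cpt1bcKO replicate 2. The ratio of *Hrc* to *Casq2* was the only 1 of the 7 without overlap, with 1.55, 1.41 and 1.54 in CtrlCre and 0.935, 1.17 and 1.29 in Cpt1bcKO samples. Its log2 difference was −0.42 (exact two-sided permutation *P* = 0.10, the smallest this test can give, and 0.70 adjusted over the 7 ratios), and −0.52 to −0.29 without a single sample. The ratio of *Casq2* to *Casq1* ranged from 62.7 to 91.3 in CtrlCre and from 78.8 to 259 in Cpt1bcKO samples, with a log2 difference of 0.88 (0.45 without Cpt1bcKO replicate 1). The ratio of *Trdn* to *Ryr2* had a log2 difference of 0.015, with 0.0703 to 0.128 in CtrlCre and 0.0794 to 0.132 in Cpt1bcKO samples. It turned to −0.22 without CtrlCre replicate 2 and to −0.20 without Cpt1bcKO replicate 1, and reached 0.21 without CtrlCre replicate 1. The log2 differences of the other 3 ratios were −0.13 for *Atp2a2* to *Slc8a1*, 0.23 for *Casq2* to *Ryr2* and 0.36 for *Jph2* to *Ryr2*, with overlapping groups. Without a single sample they ranged from −0.37 (CtrlCre replicate 1) to −0.011 (CtrlCre replicate 3), from 0.0010 (Cpt1bcKO replicate 1) to 0.36 (Cpt1bcKO replicate 2), and from 0.039 (Cpt1bcKO replicate 1) to 0.56 (Cpt1bcKO replicate 3).

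**Figure D3:**
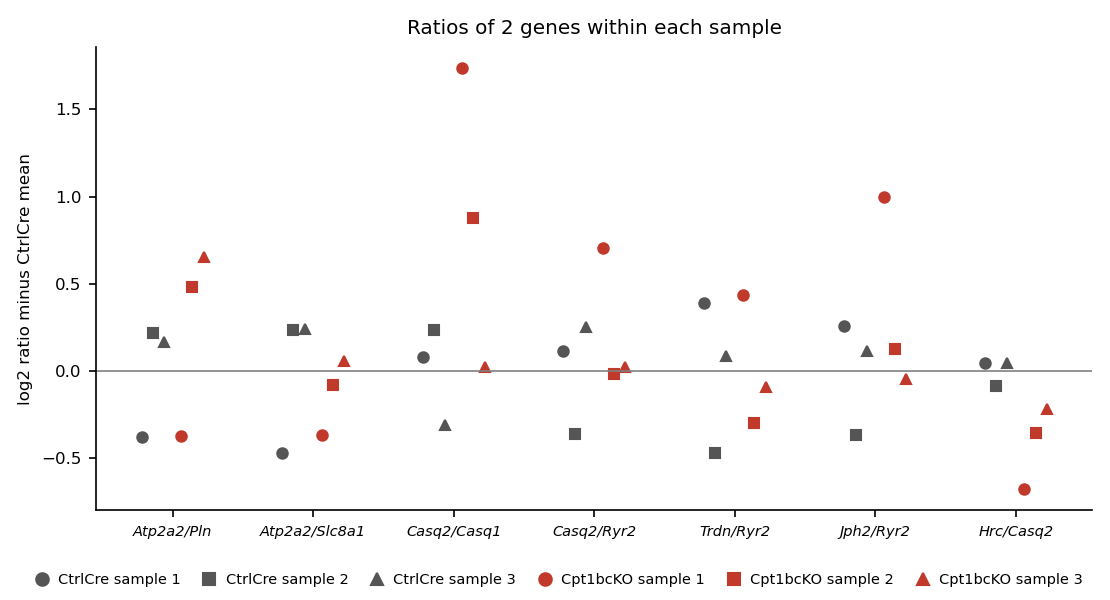
Ratio of the values of 2 genes in the same sample, as log2 distance from the CtrlCre mean, with CtrlCre samples in grey and Cpt1bcKO samples in red. Only *Hrc* to *Casq2* separates the groups, while *Atp2a2* to *Pln* is lowest in sample 1 of each group.

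Other genes of the calcium cycle were taken from 4 lists with 57 genes in all, of which 42 were tested. Of these, 31 had a negative and 11 a positive log2 fold change, with a median of −0.14, against −0.0013 over all genes tested. In limma, 3 lower genes (*Ppp1r3a*, *Tcap* and *Cacnb2*) and 1 higher gene (*S100a1*) passed the adjusted threshold, against 0.906% of all genes lower and 0.66% higher. At the unadjusted threshold there were 8 lower and 2 higher genes, against 7.22% and 6.66%. With the scaling to totals described above, the balance of all genes turned, from 103 lower and 75 higher calls at the adjusted threshold to 74 lower and 103 higher. The 42 genes then had 2 lower calls (*Ppp1r3a* and *Tcap*) and 1 higher (*S100a1*), and 5 lower and 4 higher genes at the unadjusted threshold, against 4.44% and 10.7% of all genes. Their median moved to −0.035, with 24 negative values, and that of all genes to 0.11.

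Among 10 tested genes of pump regulation, *S100a1* rose. S100A1 is a small calcium sensor that binds SERCA2 and RYR2. It had 4469, 3976 and 4169 normalized counts in CtrlCre and 8534, 7136 and 7327 in Cpt1bcKO samples, with the groups far apart. Its log2 fold change was 0.86 (limma, SE 0.142, adjusted *P* = 0.0149), and between 0.78 and 0.91 without a single sample in turn. *Hax1*, which binds phospholamban, was low, with 36, 28 and 29 against 18, 16 and 16 normalized counts (log2 fold change −0.85, adjusted *P* = 0.224). *Atp2a3*, which encodes the pump isoform SERCA3, had 6 to 26 and 17 to 27 normalized counts (log2 fold change 0.71, adjusted *P* = 0.571), and differed by 0.18 without CtrlCre replicate 1 and by 1.16 without CtrlCre replicate 3. The other 7 genes did not pass the test, among them the phosphatase subunits *Ppp1ca*, *Ppp1cb* and *Ppp1cc* and the kinases *Prkaca* and *Camk2d*. *Atp2a1*, the pump of fast skeletal muscle, had 2 to 23 normalized counts and was below the filter.

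Of 17 tested genes of release and store, 13 had a negative log2 fold change and *Ppp1r3a* fell. It encodes a subunit that brings protein phosphatase 1 to glycogen and to the sarcoplasmic reticulum. Its 3455, 3359 and 2493 normalized counts in CtrlCre compared with 1605, 1643 and 1779 in Cpt1bcKO samples, a log2 difference of −0.87 (limma, SE 0.157, adjusted *P* = 0.0224). *Calr*, encoding the calcium buffer calreticulin, had 4949, 2215 and 3247 against 1933, 1774 and 2118 normalized counts, without overlap (log2 fold change −0.76, adjusted *P* = 0.192). *Calr* was at −0.47 without CtrlCre replicate 1, its highest sample, and passed the adjusted threshold with sex as a covariate (limma adjusted *P* = 0.0471). *Calm2*, 1 of the 3 calmodulin genes, differed by −0.49 on the log2 scale (limma, adjusted *P* = 0.319, or 0.0481 with sex as a covariate), and its groups overlapped. *Ryr1*, the release channel of skeletal muscle, had 0 to 10 normalized counts and was not tested.

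Among 9 tested genes of the dyad, where transverse tubule and store meet, *Tcap* and *Cacnb2* fell. *Tcap* encodes telethonin, a titin-binding protein of the Z-disc, and went from 3073, 1777 and 2373 normalized counts in CtrlCre to 520, 428 and 1307 in Cpt1bcKO samples. Its log2 fold change, the lowest of the 42 genes, was −1.82 (limma, SE 0.361, adjusted *P* = 0.0354). *Cacnb2* encodes a subunit of the L-type calcium channel and had 545, 530 and 575 against 268, 342 and 365 normalized counts (log2 fold change −0.77, adjusted *P* = 0.0430 in limma). The call of *Cacnb2* was also lost with the scaling to totals (limma adjusted *P* = 0.0730) and with scaling by the upper quartile (0.0582). The repair protein gene *Dysf* was higher without overlap, with 282, 365 and 283 against 411, 502 and 476 normalized counts, but did not pass the adjusted threshold (log2 fold change 0.58, adjusted *P* = 0.134), which it did with sex as a covariate (limma adjusted *P* = 0.0302). Of 6 tested genes of the surface membrane and of store refilling, none passed the test in limma, adjusted or unadjusted. The calcium pump gene *Atp2b4* differed by 0.56 on the log2 scale (limma, adjusted *P* = 0.509), and by 0.12 without CtrlCre replicate 1, its lowest sample, and 0.85 without CtrlCre replicate 3. Of the others, the store sensors *Stim2* and *Stim1* had 0.25 and 0.21 (adjusted *P* = 0.732 and 0.779). *Stim2* turned to −0.057 without CtrlCre replicate 1, and *Stim1* was at 0.049 without the same sample, 0.048 without Cpt1bcKO replicate 3, 0.36 without Cpt1bcKO replicate 2 and 0.40 without CtrlCre replicate 3. The calls of *S100a1*, *Ppp1r3a*, *Tcap* and *Cacnb2* were each lost in some fits that left out a sample, with adjusted *P* values of up to 0.0873, 0.139, 0.184 and 0.170 in limma.

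**Figure D4:**
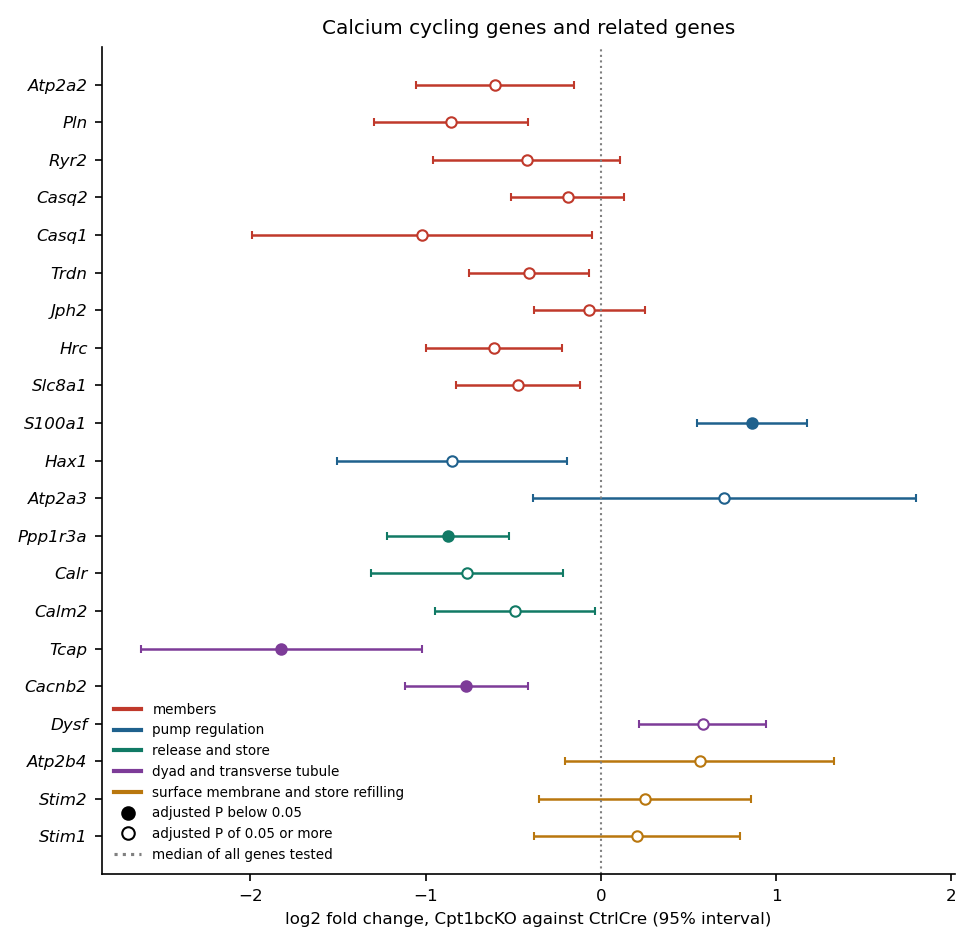
Log2 fold change of Cpt1bcKO against CtrlCre CMs on the log2(value + 1) scale with the 95% interval of limma (*n* = 3 per group) for the 9 members (red) and 12 other genes of the calcium cycle. Filled points have an adjusted *P* value below 0.05, which holds for *S100a1*, *Ppp1r3a*, *Tcap* and *Cacnb2*, and the dotted line marks the median of all genes tested (−0.0013).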

How the data were processed

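RNA-seq of CMs from 3 CtrlCre and 3 Cpt1bcKO samples was analysed from a table of 16448 genes. According to the paper's methods and the submitters' processing notes, the authors trimmed reads with Trimmomatic 0.36, aligned them to mm10 (GRCm38.p5) with STAR 2.5.4b and counted reads at least partly in exons with featureCounts 1.6.0, leaving out reads on several genes or regions. The deposited values are a score, DESeq2 normalized counts that the authors rounded to whole numbers, so no count model was used. The columns with the authors' means, fold changes and *P* values were not used. The annotation release and the strand setting are not given in the sources used here.

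Values were compared as log2(value + 1) with limma 3.58.1 (R 4.3.3, lmFit and eBayes with trend, two-sided, Benjamini–Hochberg over all genes tested) in the 11364 genes that reached 10 normalized counts in 3 or more samples. This scale understates changes of low genes. A call is an adjusted *P* value below 0.05, and unadjusted limma *P* values below 0.05 are counted beside it, since the authors called genes at an unadjusted *P* value of DESeq2 below 0.05. The members and lists were chosen with earlier results of these data known, so no list was tested. Named genes are the members, *Cpt1b* and, per list, genes past the adjusted threshold and those with the lowest *P* values up to 3. The steps were tested on simulated data. There, 60 of 88 genes with a true log2 change of 1 were called, as were 111 of 112 with a change of 1.5. Of 11196 unchanged genes, 2 were called. Smaller changes were not simulated, and the spread between simulated samples was set rather than estimated from these data. *Xist* and Y-linked genes gave the sex of each sample. Depth was estimated from the spacing of low values, and a single read is a sizeable part of values near 10. Alternatives were other scalings, pseudocounts (0.5 and 5), filters, no variance trend, a replicate block, sex, and leaving out each sample. Figures were drawn with matplotlib 3.10.9 in Python 3.11.15.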

Additional observations from a re-analysis of the deposited data

Results flagged for a closer look

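*Jph2*, the ratio of *Atp2a2* to *Slc8a1* and *Stim2* went in opposite directions in the female and the male samples of the Cpt1bcKO and CtrlCre groups. On the log2 scale, *Jph2* differed by 0.14 in the female pair and by −0.17 in the male samples. The ratio of *Atp2a2* to *Slc8a1* differed by 0.11 and −0.25, and *Stim2* by 0.89 and −0.066. *Stim2* had 40 normalized counts in CtrlCre sample 1, the female control, and 76 and 78 in the other controls. In Cpt1bcKO samples it had 75, 75 and 72. CtrlCre sample 1 was also low in endothelial markers (1082, against 2064 and 2269), and a link between the 2 was not tested. With 1 female sample per group, the difference between the sexes was not tested.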

How the results depend on the processing

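All 9 members except *Jph2* had a negative log2 fold change in each of the 17 alternatives, and *Jph2* became 0.046 after samples were scaled to their totals outside mitochondrial-encoded and rRNA genes, and ranged from −0.17 to 0.00079 without a single sample (0.00079 without Cpt1bcKO replicate 2). That scaling moved the median of all genes to 0.11 and the members' median to −0.36. *Stim2* ranged from −0.057 (without CtrlCre replicate 1) to 0.42 without a single sample, and turned to −0.066 in the male samples alone, which were analysed after seeing the data. The number of members past the adjusted threshold was 0 in limma (6 were past the unadjusted one instead), 4 with sex as covariate, 1 in the male samples alone and 0 to 1 without a single sample. Members with an unadjusted *P* value below 0.05 numbered 3 to 7 without a single sample, all lower, where 4.88% to 10.9% of all genes were lower at that threshold, and 3 without CtrlCre replicate 1, CtrlCre replicate 3 or Cpt1bcKO replicate 2. Over all genes, 178 calls at the adjusted threshold became 1578 with an unadjusted *P* value below 0.05 as the threshold instead, 41 without the variance trend, 574 with sex as covariate and 40 to 305 without a single sample. The call of *Cpt1b* itself was lost without the variance trend (limma adjusted *P* = 0.0563). Of the other calcium cycling genes, 4 calls at the adjusted threshold became 10 at the unadjusted one, 0 without the variance trend, 7 with sex as covariate, 2 in the male samples alone and 0 to 4 without a single sample. The causes of these shifts were not tested.

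Replicate numbers of the 2 groups are shared, but nothing says that they pair the samples. Deviations from the group means correlated with a mean Pearson's *r* of 0.233 between same-numbered samples (0.0684 for sample 3) and −0.113 between others across genes, which are not independent replicates. The highest was 0.376 for sample 1, the female sample of each group. Deviations within a group cancel out, which by itself pushes the correlations between others to the opposite sign. The contrast of the 2 means therefore cannot show pairing. CtrlCre sample 3 correlated best with Cpt1bcKO sample 2, so not every sample matched its own number. With the replicate block, 603 of 11364 genes were called, 354 of them lower, against 178 calls without it. Among the 603 were 4 members (*Atp2a2*, *Hrc*, *Pln* and *Slc8a1*), all lower. They also held 7 of the other calcium cycling genes, 5 lower (*Cacnb2*, *Calr*, *Cav3*, *Ppp1r3a* and *Tcap*) and 2 higher (*Dysf* and *S100a1*). Depth limits *Casq1*, *Hax1*, *Atp2a3* and other genes with few reads.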
